A study of Mus musculus with 5 samples.

Results

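The 8 genes described here encode the 3 secreted TGF-beta ligands (Tgfb1, Tgfb2 and Tgfb3), their receptors (Tgfbr1, Tgfbr2 and Tgfbr3), the latency protein Ltbp1 and the matrix protein Tgfbi. All 8 were found by symbol in the deposited count matrices, which hold single-cell RNA counts of mouse mammary tissue in 5 libraries; the design text speaks of 5 mice. Libraries KO1, KO2 and KO3 are labelled Frmd3 knockout, and libraries WT1 and WT2 are labelled wild type; the labels give no age, strain, stage or treatment. The labels say neither whether the knockout is in the whole body nor which part of Frmd3 was deleted. Cells were captured in droplets, and transcripts were counted at their 3′ end by unique molecular identifiers (UMIs). The series title places the study in the fate of mammary epithelial cells and Notch signaling, so each gene is described first by cell class and then by genotype. In build mm10 (GENCODE M21) the genes lie on chromosome 7 from 25687002 to 25705077 (Tgfb1), chromosome 1 from 186622792 to 186705989 (Tgfb2), chromosome 12 from 86056745 to 86079041 (Tgfb3), chromosome 4 from 47353222 to 47414931 (Tgfbr1), chromosome 9 from 116084293 to 116175360 (Tgfbr2) and chromosome 5 from 107106570 to 107289629 (Tgfbr3). Ltbp1 lies on chromosome 17 from 75005568 to 75392512 and Tgfbi on chromosome 13 from 56609523 to 56639562; all 8 are protein-coding.

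TGF-beta ligands are made as inactive precursors that stay bound to a latency peptide. LTBP1 ties this latent complex to the extracellular matrix, where integrins, proteases or thrombospondin 1 can free the ligand. Free ligand binds TGFBR2, which recruits and activates TGFBR1, and this pair phosphorylates SMAD proteins that regulate transcription. TGFBR3, or betaglycan, is a co-receptor that presents ligand and is best known for raising the binding of TGF-beta2. TGFBI is a secreted matrix protein named for its induction by TGF-beta. In the mammary gland the pathway is known for restraining epithelial growth and for shaping the stroma.

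The libraries held 3359 to 11040 barcodes and 24197344 to 87577099 UMIs, and 26834 cells were used after filtering and removal of likely doublets. The median depth of the cells used was 4144, 12896 and 6694.5 UMIs in KO1, KO2 and KO3, against 8566 and 12074 UMIs in WT1 and WT2. Any pair of libraries shared 3 to 22 barcodes. Frmd3 itself had 2.12, 3.06 and 1.82 CPM (UMIs scaled to a common library total) in KO1, KO2 and KO3, against 1.42 and 2.40 CPM in WT1 and WT2; 3′ counts may lie outside the deleted part, so they do not check the genotype labels. KO1 stood apart, since 3790 of its 9450 cells lay in an unnamed cluster that carried fibroblast, macrophage and epithelial genes together; these cells enter no class below. The cells fell into 33 clusters, of which 6 stayed unnamed, and a class is called "X-like" from marker genes. In the hormone-sensing luminal-like class, KO2 and WT2 held mostly other clusters than KO1 and WT1, so cluster make-up there differed between libraries of the same genotype. KO3 had 148 of its 177 such cells in another cluster, led by Fam25c and Tmem56. UMIs of other classes' markers were found throughout, and whether they came from free RNA, remaining doublets or misplaced cells was not tested: the summed level of 9 fibroblast markers was 131 to 1057 CPM in T cell-like cells, against 34544 to 75240 CPM in fibroblast-like cells, so levels of a few CPM in a class are not read as expression by it.

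Each ligand had its own distribution. Tgfb1 was high in the leukocyte classes and in blood endothelial-like cells, and low in fibroblast-like, basal/myoepithelial-like and luminal progenitor-like cells. Tgfb2 and Tgfb3 had the opposite pattern, with levels near 0 in leukocytes. Across the 11 classes with enough cells in at least 3 libraries, class means of log2(CPM + 1) had a Pearson correlation of −0.87 between Tgfb1 and Tgfb2, −0.80 between Tgfb1 and Tgfb3 and 0.80 between Tgfb2 and Tgfb3. These classes share libraries and depth, so the correlations are a description only.

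**Figure D1:**
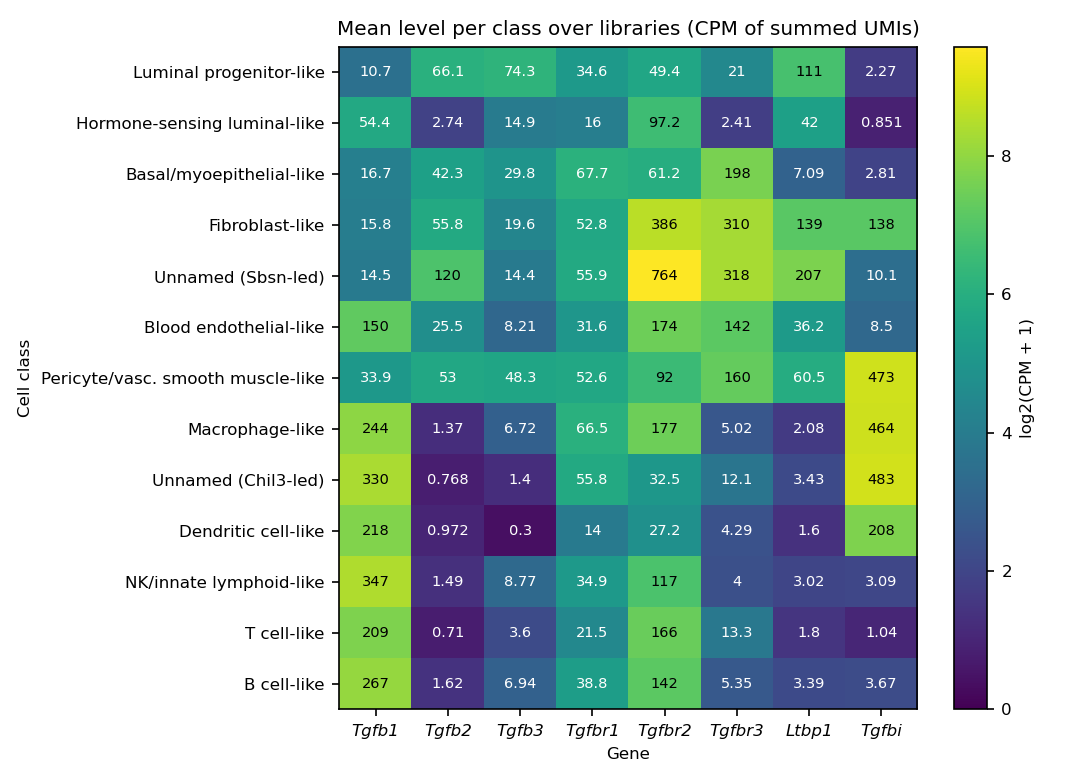
Mean level of each of the 8 genes (columns) in each cell class (rows), as CPM of UMIs summed per library and class and averaged over the libraries with at least 20 cells of the class. Colour gives log2(CPM + 1). Tgfb1 is bright in the leukocyte rows, while Tgfb2, Tgfbr3 and Ltbp1 are bright in the fibroblast-like row, at 55.8, 310 and 139 CPM.

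Tgfb1, the ligand best known for its role in immune tolerance, was highest among the named classes in NK/innate lymphoid-like cells at 347 ± 105 CPM, with the Chil3-led unnamed cluster close by at 330 ± 58.5 CPM (SD, n = 5 libraries each). NK/innate lymphoid-like cells had 420.4, 268 and 207 CPM in KO1, KO2 and KO3, against 455 and 384 CPM in WT1 and WT2. KO1 lay among the WT libraries, so the groups overlapped. Summed T cell markers in this class ran from 391 to 1574 CPM over libraries, with a median of 469 CPM. The class held 276 cells of WT1, against 171 in its largest cluster under finer clustering. There a cluster led by Klra1, Cd7 and Cd3g, with 103 cells of WT1, was named T cell-like. The part of such cells in the WT1 level was not tested. The class means went on with 267 ± 29.2 CPM in B cell-like cells (n = 4), 244 ± 39.6 CPM in macrophage-like cells, 218 ± 41.5 CPM in dendritic cell-like cells and 209 ± 63.8 CPM in T cell-like cells (n = 5 each), and neighbours in this order overlapped in their library ranges. Of the NK/innate lymphoid-like cells, 46.6% held a Tgfb1 UMI once each cell was thinned to 2000 UMIs (64.3% before thinning), against 2.26% of luminal progenitor-like cells (10.8% before thinning); 54 and 111 shallower cells were left out.

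T cell-like cells were not uniform in Tgfb1. A cluster led by Icos and Cxcr6, genes of activated and tissue T cells, averaged 295 CPM, while one led by Lef1 and Tcf7, genes of naive T cells, averaged 63.0 CPM. The first was 3.16 to 13.5 times the second within a library, in 4 of 4 libraries that held at least 20 cells of both. KO1 had the lowest Tgfb1 level of the class, 117 CPM, and 298 of its 393 T cell-like cells lay in the Lef1-led cluster. Within the Icos-led cluster KO1 had 305 CPM, the second highest of the 5 libraries after WT1 at 335 CPM.

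Among epithelial classes Tgfb1 was highest in hormone-sensing luminal-like cells, the cells that carry the estrogen and progesterone receptors. They had 47.7, 47.2 and 70.8 CPM in KO1, KO2 and KO3, against 47.5 and 58.7 CPM in WT1 and WT2. Every one of these exceeded the luminal progenitor-like level of the same library, by 4.01 to 6.43 times. Summed leukocyte markers were at 6.61 to 24.5 CPM in hormone-sensing luminal-like cells and at 9.14 to 41.8 CPM in luminal progenitor-like cells, and these ranges overlapped. The part of leukocyte RNA in the Tgfb1 level was not tested. The class gave 24.8 ± 15.1% of all Tgfb1 UMIs of a library (SD, n = 5), from 6.81% in KO1, where it was 294 of 9450 cells, to 47.5% in KO2.

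The 250 bases upstream of Tgfb1 and Tgfb2 are shown because these ligands had opposite class patterns. They are from RefSeq, build GRCm38.p6, for Tgfb1 chr7:25686752-25687001 on the plus strand and for Tgfb2 chr1:186705990-186706239 on the minus strand. Capitals mark GGGCGG on either strand (GC box) in Tgfb1 and TATAAA on the sense strand (TATA box) in Tgfb2.
Tgfb1: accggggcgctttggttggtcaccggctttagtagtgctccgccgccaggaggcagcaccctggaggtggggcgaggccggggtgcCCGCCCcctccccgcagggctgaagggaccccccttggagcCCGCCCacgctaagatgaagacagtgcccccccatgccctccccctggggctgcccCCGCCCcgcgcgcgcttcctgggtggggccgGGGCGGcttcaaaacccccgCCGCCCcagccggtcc
Tgfb2: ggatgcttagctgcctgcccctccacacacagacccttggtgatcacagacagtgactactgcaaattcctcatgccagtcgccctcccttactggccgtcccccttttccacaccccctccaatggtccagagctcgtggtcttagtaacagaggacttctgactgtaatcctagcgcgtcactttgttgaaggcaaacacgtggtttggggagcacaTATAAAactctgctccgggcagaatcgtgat
The Tgfb1 stretch is 75.2% G and C, holds 5 GC boxes and no TATAAA. The Tgfb2 stretch is 53.6% G and C, holds no GC box and has 1 TATAAA that begins 31 bases before the start. Of 32851 such upstream stretches, 32.7% hold a GC box and 7.59% hold TATAAA, with a median of 52.4% G and C. These matches are descriptions of letters, not of bound factors.

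Tgfb2, a ligand known in mammary epithelium and stroma, was found in epithelium and stroma alike. Luminal progenitor-like cells are the secretory precursor cells of the gland. Tgfb2 had 62.8, 88.0 and 38.8 CPM there in KO1, KO2 and KO3, against 55.3 and 85.9 CPM in WT1 and WT2. Fibroblast-like cells had 55.8 ± 11.98 CPM, pericyte/vascular smooth muscle-like cells 53.0 ± 31.9 CPM (n = 4) and basal/myoepithelial-like cells 42.3 ± 5.73 CPM (SD, n = 5 for the others), and these neighbours overlapped. The order was not stable: pericyte/vascular smooth muscle-like cells led at 133 to 151 CPM under the looser filter, the stricter filter and the marker gate. The cluster with this name was led by Sfrp5 and Rgs5 in the main setting. Under the stricter filter it was led by Gm13889, Myh11 and Rgs5, and an Sfrp5-led cluster lay apart from it. The levels of this class under different settings are thus not those of the same cells. Hormone-sensing luminal-like cells were far lower, with 1.01, 1.78 and 9.01 CPM in KO1, KO2 and KO3, against 0.60 and 1.32 CPM in WT1 and WT2. Luminal progenitor-like cells were higher in 5 of 5 libraries; no fold is given, since most of the hormone-sensing values are near 1 CPM. Among the unnamed clusters, one led by Mrgprg, Smpd3, Sbsn and Krtdap, in which all 9 fibroblast markers were detected, had 120 ± 17.3 CPM of Tgfb2 (n = 5), above fibroblast-like cells.

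Tgfb3, which is known for epithelial and palatal development, averaged 74.3 ± 34.2 CPM in luminal progenitor-like cells and 48.3 ± 23.3 CPM in pericyte/vascular smooth muscle-like cells (n = 4). The latter cluster was led by Sfrp5 and Rgs5 and also carried 4182 to 15480 CPM of fibroblast markers. Cells given the same name under the stricter filter and the marker gate led at 127 CPM, but, as for Tgfb2, these are not the same cells. Luminal progenitor-like cells had 83.6, 33.1 and 114 CPM in KO1, KO2 and KO3, against 95.7 and 45.1 CPM in WT1 and WT2. KO2 and WT2 were the low libraries of each genotype, and the groups overlapped. The same 2 libraries were lowest in hormone-sensing luminal-like cells, with 5.76 CPM in KO2 and 4.65 CPM in WT2 against 17.1 to 24.0 CPM in the other 3 libraries. Luminal progenitor-like cells exceeded hormone-sensing luminal-like cells in Tgfb3 by 4.17 to 9.71 times in 5 of 5 libraries, and basal/myoepithelial-like cells by 1.80 to 3.54 times.

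Inside the luminal progenitor-like class Tgfb2 and Tgfb3 did not run together. A smaller cluster led by Kit and Slc5a7 had 0.152 to 0.537 times the Tgfb2 level of the larger cluster led by Plet1 and Wfdc18, and it was lower in 4 of 4 libraries. Tgfb3 was higher in the Kit-led cluster in 3 of these 4 libraries, at up to 2.62 times the other cluster, and lower in KO3, where only 23 and 25 cells were compared. The highest Tgfb3 level of any cluster was in an unnamed one led by Myh11 and Sncg, in which 4 of 9 basal/myoepithelial markers had a UMI in KO1 and 6 of 9 in WT1. Its summed level of 6 epithelial markers was 71.2 to 673 CPM, against 680 to 2323 CPM in basal/myoepithelial-like cells. Under the stricter filter, Myh11 and Sncg were among the leading genes of the cluster named pericyte/vascular smooth muscle-like. The unnamed Myh11-led cluster of the main setting had 201 CPM of Tgfb3 in KO1 and 190 CPM in WT1, the only libraries with at least 20 of its cells.

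**Figure D2:**
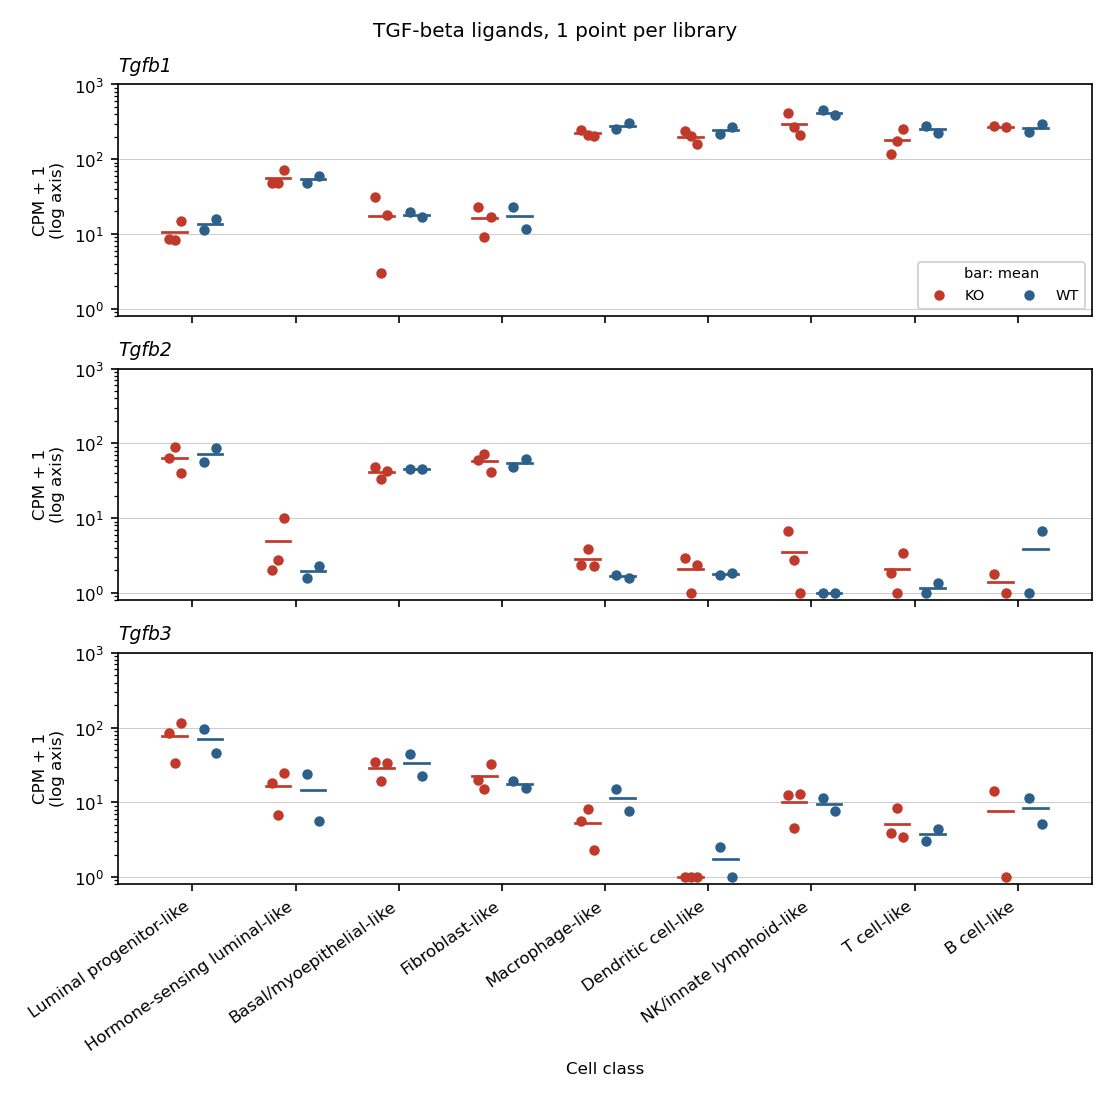
Level of the 3 ligands in 9 cell classes, as CPM + 1 on a log axis; each point is 1 library (KO red and left, WT blue and right) and each bar is the mean of its genotype. Hormone-sensing luminal-like cells had a Tgfb1 level of 47.2 to 70.8 CPM and a Tgfb2 level of 0.60 to 9.01 CPM, and KO and WT points overlap in both.

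Ltbp1, which stores latent TGF-beta in the matrix, was at 139 ± 27.9 CPM in fibroblast-like cells and 111 ± 25.9 CPM in luminal progenitor-like cells (SD, n = 5 each), and these ranges overlapped. Luminal progenitor-like cells had 116, 130.0 and 66.2 CPM in KO1, KO2 and KO3, against 128 and 114 CPM in WT1 and WT2. Basal/myoepithelial-like cells were low at 7.09 ± 7.16 CPM (n = 5). The Sbsn-led unnamed cluster was highest at 207 ± 21.6 CPM, and its library range did not overlap that of fibroblast-like cells.

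Ltbp1 in hormone-sensing luminal-like cells did not separate by genotype. It had 60.7, 6.99 and 47.9 CPM in KO1, KO2 and KO3, against 92.1 and 2.45 CPM in WT1 and WT2, so KO2 and WT2 were low and the other 3 libraries were high. The cluster that held most such cells of KO1 and WT1 (led by Nrxn3 and Dmbt1) averaged 79.9 CPM of Ltbp1, and the cluster that held most of KO2 and WT2 (led by Fgb and Upk3a) averaged 4.15 CPM. In a cluster present in all 5 libraries (led by Fam25c and Tmem56) KO2 and WT2 were again the lowest, with Ltbp1 at 23.0, 8.46 and 51.3 CPM in KO1, KO2 and KO3, against 42.3 and 4.25 CPM in WT1 and WT2. What the numbers stand for (a day, a cage or a stage) is not given in the sources used here, and the part of a shared batch was not tested.

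Tgfbr1, the kinase that phosphorylates SMAD2 and SMAD3, was broadly spread. Apart from 1 library with enough mast cell/basophil-like cells (308 CPM in KO3) and neutrophil-like cells in 2 libraries (88.8 ± 4.24 CPM, n = 2), basal/myoepithelial-like cells were among the highest named classes and had 81.0, 59.2 and 62.7 CPM in KO1, KO2 and KO3, against 92.6 and 43.2 CPM in WT1 and WT2. Macrophage-like cells at 66.5 ± 28.5 CPM and fibroblast-like cells at 52.8 ± 10.5 CPM overlapped with it (n = 5 each). Basal/myoepithelial-like cells exceeded luminal progenitor-like cells by 1.34 to 2.39 times and hormone-sensing luminal-like cells by 1.78 to 14.4 times, each in 5 of 5 libraries. A small macrophage-like cluster led by Mmp12 had 327 CPM of Tgfbr1 in WT1, the only library with at least 20 of its cells.

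Tgfbr2, the receptor that binds ligand first, was highest in cells with fibroblast markers. Fibroblast-like cells had 449.6, 390.1 and 205 CPM in KO1, KO2 and KO3, against 423 and 464 CPM in WT1 and WT2. KO3 was the low library and the groups overlapped. Among leukocytes, macrophage-like cells had 177 ± 30.4 CPM and dendritic cell-like cells 27.2 ± 12.01 CPM (n = 5 each), and the first were higher in 5 of 5 libraries. Macrophage-like cells did not stand alone. With each cell thinned to 2000 UMIs, 29.4% of them held a Tgfbr2 UMI, against 6.13% of dendritic cell-like cells. The share was 29.5% in T cell-like, 24.8% in B cell-like (n = 4), 23.4% in neutrophil-like (n = 2) and 18.2% in NK/innate lymphoid-like cells. An unnamed cluster led by Chil3 and Ly6c2, genes of monocytes, had 32.5 ± 13.0 CPM. In the epithelium Tgfbr2 was higher in hormone-sensing luminal-like than in luminal progenitor-like cells by 1.61 to 2.22 times in 5 of 5 libraries.

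Clusters of cells with fibroblast markers differed in Tgfbr2, and the replicate number ran through them. The Sbsn-led cluster averaged 764 CPM, an Akr1c18-led cluster 730 CPM and a Pi16-led cluster, with genes of adventitial fibroblasts, 661 CPM, whereas an Enpp2-led cluster averaged 254 CPM and a Gdf10-led cluster 214 CPM. In the Akr1c18-led cluster Tgfbr2 had 1217, 481 and 399.9 CPM in KO1, KO2 and KO3, against 996 and 555 CPM in WT1 and WT2. KO1 and WT1 were likewise the 2 highest libraries in the Sbsn-led, Enpp2-led, Gdf10-led and Cxcl13-led clusters. KO and WT libraries overlapped in each of them.

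Tgfbr3, the co-receptor, was high in Schwann/glial-like cells of 2 libraries, with 360 CPM in KO2 and 324 CPM in WT2, and in fibroblast-like cells at 310 ± 23.1 CPM (SD, n = 5). Their ranges overlapped, and fibroblast-like cells were the higher under the looser and the stricter cell filter. Within the epithelium it marked basal/myoepithelial-like cells, the contractile outer layer, with 223, 147 and 201 CPM in KO1, KO2 and KO3, against 279 and 137 CPM in WT1 and WT2. These levels were 5.65 to 15.2 times those of luminal progenitor-like cells in 5 of 5 libraries. Luminal progenitor-like cells had 21.0 ± 2.09 CPM and hormone-sensing luminal-like cells 2.41 ± 0.87 CPM (n = 5 each).

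**Figure D3:**
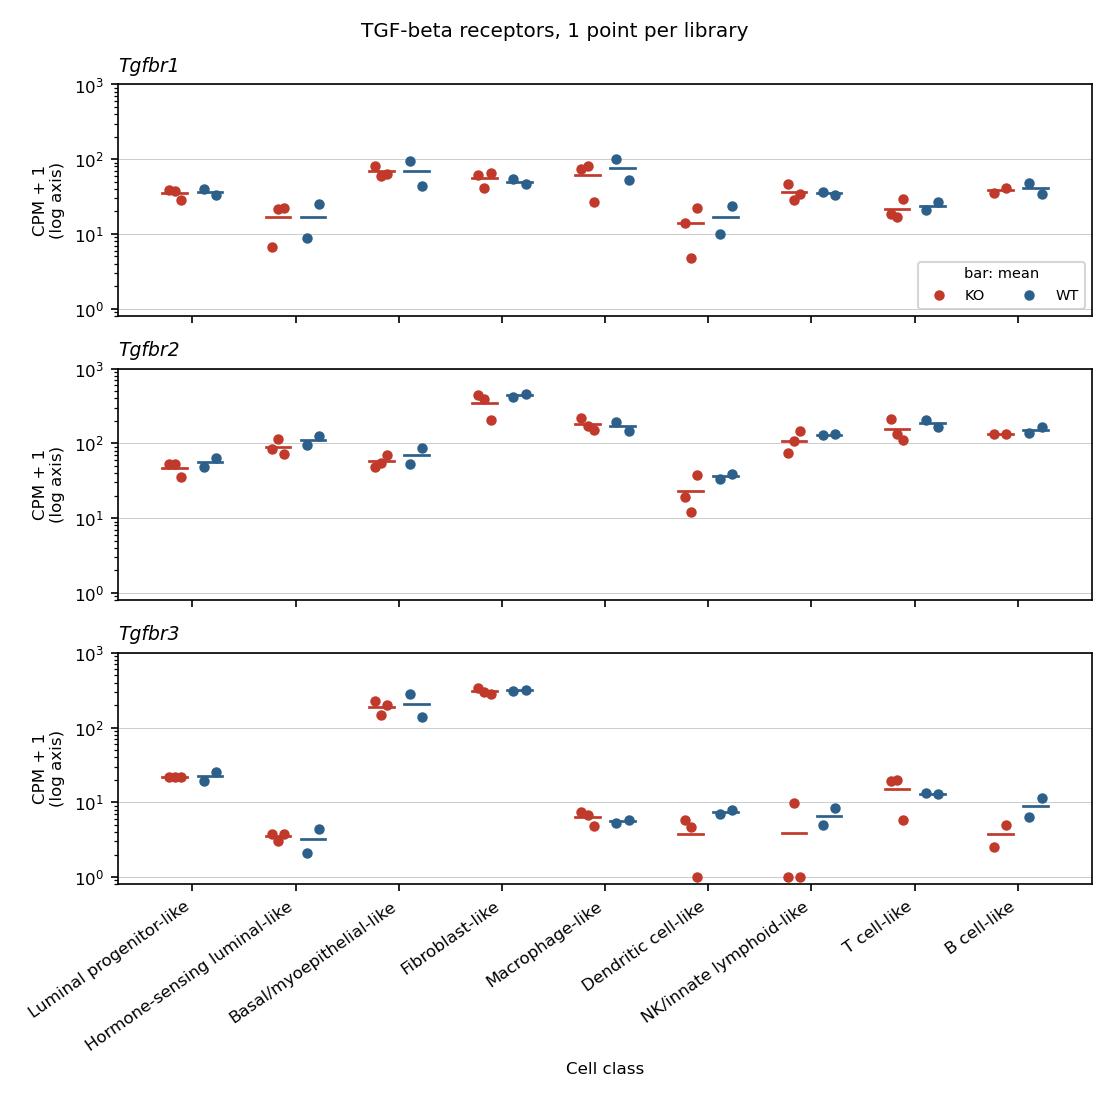
Level of the 3 receptors in 9 cell classes, as CPM + 1 on a log axis; each point is 1 library (KO red and left, WT blue and right) and each bar is the mean of its genotype. Tgfbr3 lies at 137 to 279 CPM in basal/myoepithelial-like cells and at 1.12 to 3.38 CPM in hormone-sensing luminal-like cells, with KO and WT points overlapping.

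Tgfbi, the TGF-beta-induced matrix protein, was high in myeloid cells and low in the epithelium, where no class averaged over 2.81 CPM. Macrophage-like cells had 629, 381 and 472 CPM in KO1, KO2 and KO3, against 502 and 336 CPM in WT1 and WT2. Fibroblast-like cells were lower, with a mean of 129 CPM in KO and 151 CPM in WT libraries. They still gave 56.3% of the Tgfbi UMIs on average, against 22.7% from macrophage-like cells. The Chil3-led unnamed cluster had 483 ± 109 CPM and dendritic cell-like cells 208 ± 83.8 CPM (SD, n = 5 each); macrophage-like cells exceeded the dendritic ones by 1.47 to 3.04 times in 5 of 5 libraries. Pericyte/vascular smooth muscle-like cells averaged 473 ± 345 CPM (n = 4), but that cluster also carried 4182 to 15480 CPM of fibroblast markers. Under other cell filters and under a marker gate the class had 0 to 1.56 CPM of Tgfbi, so its level is not taken as that of pericytes.

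In cells with fibroblast markers Tgfbi was lowest where Tgfbr2 was highest. It averaged 10.1 ± 2.44 CPM in the Sbsn-led cluster and 27.5 CPM in the Akr1c18-led cluster, against 411 CPM in the Gdf10-led cluster and 931 CPM in an Apod-led cluster that also carried Smoc2 and Thbs4. The Gdf10-led cluster had 333, 495 and 448 CPM in KO1, KO2 and KO3, against 252 and 526 CPM in WT1 and WT2. It was 3.05 to 7.25 times the Enpp2-led cluster in 5 of 5 libraries. The Pi16-led cluster exceeded the Gdf10-led one in Tgfbr2 by 2.65 to 3.41 times in the 3 libraries with enough cells. Clusters were formed without these genes among the variable genes, but their other genes define them, so no test is given.

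**Figure D4:**
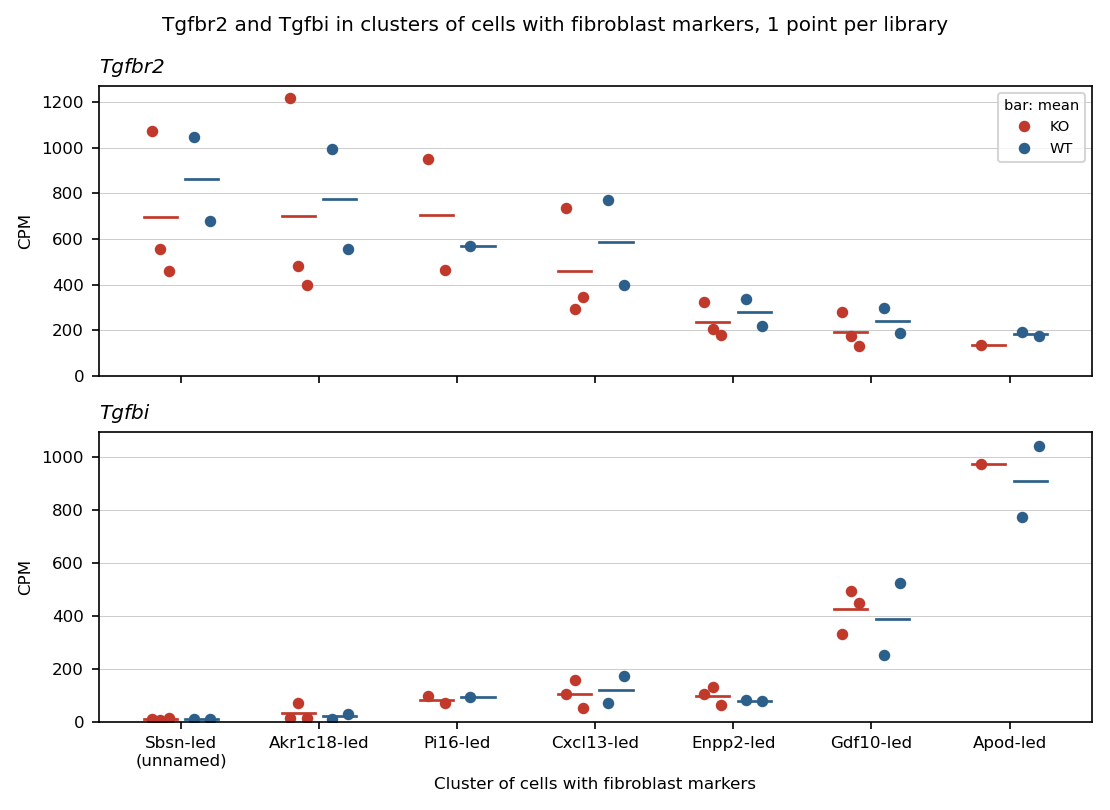
Level (CPM, linear axis from 0) of Tgfbr2 (top) and Tgfbi (bottom) in 7 clusters of cells with fibroblast markers, ordered by falling Tgfbr2; each point is a library with at least 20 cells of the cluster (KO red and left, WT blue and right) and each bar is the mean of its genotype. Tgfbi averages 10.1 CPM in the leftmost cluster and 931 CPM in the rightmost.

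By their pattern over the 11 classes, the genes most like a member were found by the Pearson correlation of class means of log2(CPM + 1). Tgfb1 was most like Abcg1, a cholesterol exporter (r = 0.97), and Tgfb3 like Nek1, a kinase (r = 0.97). Tgfbr1 was most like Map3k2 (r = 0.95), Tgfbr3 like Mpdz, a scaffold protein (r = 0.98), and Ltbp1 like Enah, an actin regulator (r = 0.94). Tgfbi was most like Rab3il1 (r = 0.93), while for Tgfbr2 the best match, Phf21a, reached only r = 0.83. The second match of Tgfbr3 was Col4a1, a basement membrane collagen (r = 0.98).

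The comparison of Frmd3 knockout with wild type libraries asks whether any of these levels moved with the genotype. Counts of each library were added up within a class, and 9 classes were tested with edgeR's quasi-likelihood test, with p-values adjusted over all genes of the class by the Benjamini-Hochberg method at a threshold of 0.05. None of the 8 genes passed in any class: 0 of 50 gene and class pairs were called, with adjusted p-values of at least 0.999, and 1 of the 50 had an unadjusted p under 0.05. The share of all tested genes that was called was 0.0139% in B cell-like cells, 0.0228% in macrophage-like cells and 0% in each of the other 7 classes. With DESeq2 the number of members called was 0 as well. Of the 50 fold changes, 15 were above 0 and 35 below 0. These are the same 8 genes over classes of the same 5 libraries, so the directions are not independent. The split over all genes was not counted. Summed over all cells, 3 members were above 0 and 5 below 0. The libraries are 3 against 2, so moderate changes may not be detectable.

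In epithelium no fitted difference passed the test. For luminal progenitor-like cells the log2 fold change of KO over WT was −0.07 ± 0.33 for Tgfb2 (fit SE), −0.01 ± 0.52 for Tgfb3, −0.16 ± 0.27 for Ltbp1 and −0.20 ± 0.23 for Tgfbr2, and KO and WT libraries overlapped in each of these. Tgfb1 had −0.60 ± 0.33 there. All 8 fitted values were below 0 (median −0.12, against −0.0026 over all genes of the class), but those of Tgfb3 and Tgfbr1 were −0.01 each, and for Tgfb3 the mean was 77.0 CPM in KO and 70.4 CPM in WT libraries. Several of these signs turned under other settings. In hormone-sensing luminal-like cells Tgfb1 had a log2 fold change of 0.02 ± 0.22 and Tgfbr2 one of −0.31 ± 0.26. Tgfb2 and Tgfbi were counted at low levels there, with log2 fold changes of 1.94 ± 1.01 and −1.40 ± 0.58; Tgfbi had 0.40, 0.73 and 0.32 CPM in KO1, KO2 and KO3, against 1.57 and 1.22 CPM in WT1 and WT2, without overlap but from 2 UMIs each in KO1 and KO3 (unadjusted p 0.053 by edgeR). These values and that of Tgfb1 in luminal progenitor-like cells fall outside the rule for named differences and were chosen after they were seen. Ltbp1 had −0.37 ± 1.41 in this class, its wide error coming with the split between libraries of different number described above. In basal/myoepithelial-like cells Tgfbr3 had −0.12 ± 0.38 and Tgfbr1 0.01 ± 0.40.

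In the stroma Tgfbr2 had a log2 fold change of −0.37 ± 0.38 in fibroblast-like cells, where KO3 alone was low. Tgfbr3 had −0.07 ± 0.20, Tgfb2 0.05 ± 0.33, Ltbp1 −0.02 ± 0.32 and Tgfbi −0.24 ± 0.37 in the same cells. In leukocytes the highest class level, that of Tgfb1 in NK/innate lymphoid-like cells, had −0.47 ± 0.26, and Tgfbi in macrophage-like cells had 0.26 ± 0.31; leaving out 1 library gave −0.75 to −0.31 and 0.035 to 0.47. The single unadjusted p under 0.05 was Tgfb3 in macrophage-like cells. It had 4.60, 7.13 and 1.28 CPM in KO1, KO2 and KO3, against 14.0 and 6.63 CPM in WT1 and WT2, a log2 fold change of −1.40 ± 0.62 with an unadjusted p of 0.049 and an adjusted p of 0.999 by edgeR. The groups overlapped. The Mmp12-led cluster held 51 of 492 macrophage-like cells in WT1 and 15 of 237 in WT2. In KO1, KO2 and KO3 it held 11 of 504, 14 of 76 and 3 of 412. It had 60.5 CPM of Tgfb3 in WT1, while the Mrc1-led cluster averaged 1.40 CPM over the 5 libraries. The part of this mix of clusters in the difference was not tested.

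**Figure D5:**
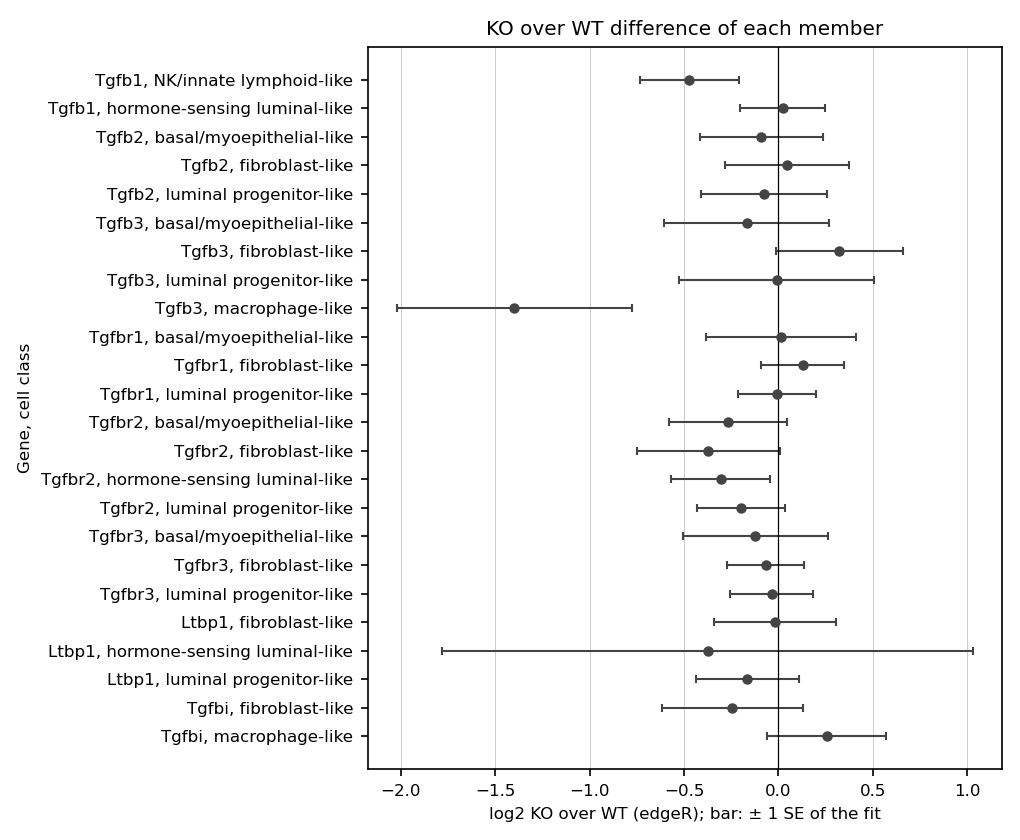
Fitted log2 difference of KO over WT (x axis) for 24 gene and class pairs (rows), with bars of 1 SE of the edgeR fit on each side. Of the 24, 6 points are above 0 and 18 below 0, and the point farthest from 0 is Tgfb3 in macrophage-like cells at −1.40. That pair was included only for its unadjusted p under 0.05 by edgeR. The same genes recur over classes of the same libraries, so the points are not independent.

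Summed over all cells of a library, 0 of the 8 genes passed, at a background of 0% of genes called, while 222 of 17262 genes had an unadjusted p under 0.05. Tgfb1 had 52.1, 42.7 and 68.2 CPM in KO1, KO2 and KO3, against 68.4 and 70.0 CPM in WT1 and WT2. All 3 KO libraries were below both WT libraries, KO3 only just below WT1, with a log2 fold change of −0.37 ± 0.20 and an adjusted p of 0.9997 by edgeR. How many of all genes separate in this way was not counted. These sums include the mixed unnamed cluster that enters no class, which gave 16.4% of the UMIs of KO1. Tgfbr2 had 449 CPM in KO1 and 163 CPM in KO3, a wider spread than that between genotypes. In such sums fewer cells of a type and less RNA per cell cannot be told apart. Fibroblast-like cells gave 68.1% of the Tgfbr3 UMIs, 56.3% of those of Tgfbi and 51.8% of those of Ltbp1 on average over libraries. For Tgfbr2, Tgfb2 and Tgfbr1 they gave 47.3%, 45.8% and 42.7%, so their share of cells weighs on each of these genes.

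Other genes of the pathway were counted in 4 lists with 63 genes: storage and activation of latent TGF-beta, related receptors and co-receptors, SMADs and their regulators, and TGF-beta response genes. Of 403 gene and class tests, 1 passed and 15 had an unadjusted p under 0.05, which is 3.72% of the list tests against 1.3% of all gene tests in these classes. The tests repeat the same genes over classes of the same libraries, and the lists were chosen with earlier results of these data known. These shares are therefore a description only. No list gene had an unadjusted p under 0.05 by edgeR in fibroblast-like, hormone-sensing luminal-like or basal/myoepithelial-like cells. In fibroblast-like cells 0 of 15, 0 of 9, 0 of 15 and 0 of 23 tested genes of the lists passed, with medians of log2 fold change of 0.01, 0.12, −0.06 and 0.23, against −0.01 over all genes. In luminal progenitor-like cells 0 of 13, 0 of 8, 0 of 15 and 0 of 19 passed, and in hormone-sensing luminal-like cells 0 of 12, 0 of 10, 0 of 15 and 0 of 21. In basal/myoepithelial-like cells 0 of 12, 0 of 6, 0 of 14 and 0 of 17 passed. The median of the response genes was not of one sign: it was 0.23 in fibroblast-like cells (17 above 0, 6 below), 0.05 in luminal progenitor-like and dendritic cell-like cells and −0.02 in NK/innate lymphoid-like cells. It was −0.46 in hormone-sensing luminal-like cells (7 above, 14 below), −0.59 in T cell-like cells (3 above, 10 below), −0.39 in B cell-like, −0.25 in macrophage-like and −0.19 in basal/myoepithelial-like cells. The response list includes matrix genes such as Col1a1 and Col3a1, which are also fibroblast markers. Summed fibroblast markers ran from 48.1 to 563 CPM over libraries in hormone-sensing luminal-like cells and from 131 to 1057 CPM in T cell-like cells. The part of such RNA in these medians was not tested, so they are not read as each class's own response.

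The gene that passed was Thbs1, which encodes thrombospondin 1, an activator of latent TGF-beta, in macrophage-like cells. It had 9.19, 11.4 and 6.39 CPM in KO1, KO2 and KO3, against 80.6 and 65.7 CPM in WT1 and WT2, a log2 fold change of −3.06 ± 0.31 with an adjusted p of 0.011 by edgeR. The groups did not overlap. The call was lost under 5 other ways of filtering or grouping cells (log2 −2.62 to −1.11), without KO1 (adjusted p 0.570) and without KO3 (adjusted p 0.0901, edgeR's quasi-likelihood test throughout). The UMIs of WT2 came from few cells: 89 of its 109 Thbs1 UMIs lay in 5 cells, and 91 lay in the 15 cells of the Mmp12-led cluster. WT1 had 112 Thbs1 UMIs in the 51 cells of that cluster. The KO libraries had 1 in 11 cells (KO1), 3 in 14 cells (KO2) and 0 in 3 cells (KO3) of it. This difference inside the cluster was not tested. In the Mrc1-led cluster alone Thbs1 had 9.23, 10.1 and 6.42 CPM in KO1, KO2 and KO3, against 50.7 and 12.5 CPM in WT1 and WT2, and the difference did not pass (log2 −1.93, adjusted p 0.9998 by edgeR, an alternative chosen after seeing the data). The unnamed Chil3-led cluster, which is outside this class, had 1174 to 4746 CPM of Thbs1 in the KO libraries, against 4455 and 5501 CPM in WT1 and WT2. The part of such cells or their free RNA in the value was not tested.

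Of the pathway genes that did not pass, Smad7, an inhibitory SMAD that TGF-beta induces, had opposite directions in 2 myeloid classes. In dendritic cell-like cells it had 32.1, 29.8 and 33.7 CPM in KO1, KO2 and KO3, against 14.3 and 12.2 CPM in WT1 and WT2, with a log2 fold change of 1.31 and an unadjusted p of 0.0054. In macrophage-like cells it had 12.9, 12.8 and 6.39 CPM in KO1, KO2 and KO3, against 31.5 and 19.9 CPM in WT1 and WT2, with a log2 fold change of −1.29 and an unadjusted p of 0.0078. KO and WT libraries did not overlap in either class, neither passed after adjustment by edgeR, and the difference between the classes was not tested. Jun, an immediate-early transcription factor, had 209, 214 and 351 CPM in KO1, KO2 and KO3, against 161 and 107 CPM in WT1 and WT2, in NK/innate lymphoid-like cells (log2 0.99, unadjusted p 0.0069 by edgeR). Smad7 and Jun were named for their low unadjusted p among the 403 tests, and that choice favours libraries without overlap. How many of all genes lacked overlap was not counted. Other classes held such low values too, with 3 response genes each in luminal progenitor-like and B cell-like cells.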

How the data were processed

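The deposited files are UMI counts per gene and cell barcode, made by the authors with Cell Ranger 6.0.2 (KO3 with 6.1.2), per the file headers, on build mm10, per the submitters' processing notes; libraries used a 3′ version 3 kit, per the labels' protocols. Barcodes under 500 genes or over 15% mitochondrial UMIs were left out. Likely doublets were removed by a simulated-doublet score, at 0.8% per 1000 barcodes. Cells were clustered (2000 variable genes without the 8 members, 30 principal components, 20 neighbours, Leiden resolution 1, no batch correction), and a cluster was named from at least 3 marker genes. UMIs were summed per library and class, in CPM, where a library had at least 20 cells. Genotypes were compared in classes with at least 2 libraries per genotype by edgeR 4.0.16 (TMM, quasi-likelihood test, Benjamini-Hochberg adjustment); DESeq2 1.42.0 was an alternative. The scripts were tested on simulated data. Members, lists and the rule for named differences were chosen with earlier results of these data known. The rule took the tested class with the highest level, and epithelial or fibroblast-like classes with at least 20 CPM in a genotype. It also took any class where a member had an unadjusted p under 0.05 by edgeR. The labels do not say what the replicate number marks, and it was not part of the main fits. The p-values weigh the difference of KO and WT against the spread between these libraries. Software was R 4.3.3, Python 3.11.15, scikit-learn 1.9.0 and leidenalg 0.10.2. The gene most like Tgfb2 is not reported here.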

Additional observations from a re-analysis of the deposited data

How the results depend on the processing

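None of the 8 genes was called in any of 14 settings, by class or over all cells (lowest adjusted p 0.209 by edgeR or DESeq2). The number of all genes called was 3, against 8 with DESeq2, 146 with no filter on low counts, 0 with a looser cell filter, 1 with a stricter one, 1 with finer clustering, 0 with a marker gate and 1 to 62 leaving out 1 library; the causes were not tested. Pathway genes called were 1, against 2 with no filter on low counts, 0 with the looser filter, the stricter filter, doublets kept, finer clustering or the marker gate, and 0 to 3 leaving out 1 library. Thbs1 in macrophage-like cells (log2 −3.06) was −1.11 with the looser filter, −2.55 with the stricter filter, −1.57 with doublets kept, −2.62 with finer clustering, −1.11 with the marker gate and −1.93 in the Mrc1-led cluster alone, none past the threshold, and −3.23 to −2.90 leaving out 1 library.

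The replicate number was tried as a replicate block. Deviations of same-numbered libraries correlated by 0.105 to 0.567 (number 1) and 0.165 to 0.729 (number 2) over genes, with only 2 pairs. KO3 and WT1, which differ in number, correlated by −0.141 to 0.456, more than number 1 in dendritic cell-like cells and over all cells. Deviations were taken from the mean of each genotype, so those of WT1 and WT2 are equal and opposite. The correlations of number 1, of number 2 and of KO3 with WT1 are therefore tied to one another and are not separate results. With the block 239 genes and 3 pathway genes were called. Directions turned for Tgfb1 in hormone-sensing luminal-like cells (−0.17), Tgfb2 (0.11), Tgfbr1 (0.069) and Ltbp1 (0.028) in luminal progenitor-like cells, Tgfb3 (−0.021), Tgfbr3 (0.021), Ltbp1 (0.17) and Tgfbi (0.0036) in fibroblast-like cells, and Ltbp1 in hormone-sensing luminal-like cells (0.18).

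Other turned directions, all of log2 differences that never passed, were as follows. With the stricter filter they were Tgfb1 in hormone-sensing luminal-like (−0.032), Tgfb3 (0.030), Tgfbr1 (0.00080) and Tgfbr3 (0.0034) in luminal progenitor-like, Tgfbr1 in basal/myoepithelial-like (−0.0021) and Ltbp1 in fibroblast-like cells (0.017). With doublets kept they were Tgfb3 in basal/myoepithelial-like (0.027), Tgfb3 (0.061) and Tgfbr3 (0.018) in luminal progenitor-like, and Tgfbr1 in basal/myoepithelial-like cells (−0.029). With the marker gate they were Tgfb3 (0.22) and Tgfbr1 (−0.18) in basal/myoepithelial-like, Tgfbr1 in fibroblast-like (−0.014) and Tgfbr2 in luminal progenitor-like cells (0.13). Tgfb3 in luminal progenitor-like cells was 0.057 with DESeq2, and Tgfbr1 in basal/myoepithelial-like cells was −0.017 with no filter on low counts. With the looser filter Tgfbr1 was −0.0049 in fibroblast-like and 0.0075 in luminal progenitor-like cells. Ltbp1 in fibroblast-like cells was 0.032 with finer clustering and 0.0042 with the Sbsn-led cluster added, an alternative chosen after seeing the data.

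Leaving out 1 library, 30 of 120 log2 differences turned. In fibroblast-like cells the ranges were −0.34 to 0.40 (Ltbp1), −0.23 to 0.32 (Tgfb2), −0.013 to 0.52 (Tgfb3), −0.58 to 0.20 (Tgfbi) and −0.15 to 0.025 (Tgfbr3). In luminal progenitor-like cells they were −0.38 to 0.034 (Ltbp1), −0.43 to 0.28 (Tgfb2), −0.44 to 0.62 (Tgfb3), −0.13 to 0.12 (Tgfbr1), −0.41 to 0.035 (Tgfbr2) and −0.24 to 0.18 (Tgfbr3). In basal/myoepithelial-like cells they were −0.31 to 0.055 (Tgfb2), −0.65 to 0.50 (Tgfb3), −0.49 to 0.76 (Tgfbr1), −0.53 to 0.047 (Tgfbr2) and −0.60 to 0.58 (Tgfbr3), and in hormone-sensing luminal-like cells −1.35 to 3.96 (Ltbp1) and −0.16 to 0.14 (Tgfb1). Without a turn, Tgfbr2 ran from −0.55 to −0.083 in fibroblast-like and −0.53 to −0.12 in hormone-sensing luminal-like cells, Tgfbr1 in fibroblast-like cells from 0.031 to 0.27 and Tgfb3 in macrophage-like cells from −1.77 to −0.81. Of 47 class levels under other settings, 42 moved by less than 1 SD; Tgfbr2 in fibroblast-like cells was 524 CPM with the stricter filter and 511 CPM with finer clustering.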
